A study of Danio rerio with 6 samples.

Results

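Dense groups of Eomesa peaks were the subject, that is stretches of the zebrafish genome where bound regions of the T-box factor Eomesa lay close together. The members were chosen by the positions of the peaks alone. Peaks on chromosomes 1 to 25 were sorted and chained wherever the gap from the end of one to the start of the next was at most 10 kb, and chains of 3 or more peaks were kept. This gave 227 groups with 771 member peaks, of 6215 Eomesa peaks on these chromosomes and 6378 in all, so that 12.4% of the peaks on the chromosomes (95% Wilson interval, 11.6 to 13.2) were members. The other 5444 peaks, 1444 of them in 722 pairs and 4000 standing alone, were not grouped.

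Eomesa, a homologue of Eomesodermin, is laid down in the egg by the mother and acts in the early embryo with the Nodal pathway. Nodal ligands signal through receptors that phosphorylate Smad2, which enters the nucleus and binds DNA together with partner factors, among them the forkhead factor Foxh1 and Eomesodermin. In blastulas these factors turn on genes of the mesendoderm, the common precursor of mesoderm and endoderm. Genes of early development often have several regulatory elements spread over many kilobases, which is the arrangement that a chain of peaks can record.

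Chromatin was taken from wild-type AB embryos at high-sphere stage, with no mutation or treatment in any group. There were 2 Eomesa ChIP reactions, 2 Smad2 ChIP reactions and 2 input samples of whole chromatin, 6 libraries in 3 groups. For each factor the data hold 1 list, limited to peaks called in both of its reactions, and there is 1 coverage track each for Eomesa, Smad2 and input. With no value for a single reaction no difference could be tested, the intervals given cover counting of peaks only, and, whole embryos having been used, fewer bound cells and less binding in each cell cannot be told apart.

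A track gives the number of sequenced tags that cover a base. The estimated number of tags on the 25 chromosomes was 11.9 M for Eomesa, 12.2 M for Smad2 and 18.4 M for input (M, 1e+06 tags). Each tag covered 38.9 bp in the Eomesa track, but 132 bp in the Smad2 and input tracks. Height is the highest number of tags at 1 position of a peak and is compared only within a track. Across tracks, the mean signal of a peak is given as a multiple of the mean of that track over the chromosomes, and Eomesa or Smad2 over input is the ratio of such multiples. This scaling does not remove the difference in tag length, so Eomesa multiples are not strictly like those of Smad2 and input. The part of tag length in Eomesa over input was not tested.

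Foxh1 site letters are shown first, because they are the only sequence at hand for these peaks and because Foxh1 is a partner of Smad2. The annotation that accompanies the peak lists gives at most 1 such site of 11 letters for a peak. All 20 entries in groups with a gene of the developmental lists used below are printed, with the last 8 letters in capitals. Each stands under the listed gene or genes of its group and the Zv9 position of the member peak that holds it. The annotation does not name that gene for every such peak. It names pcca for chr1:28816392-28816619, and vent without vox for chr13:54065528-54065931. No gene is named for chr1:28825834-28826424 and chr8:54049983-54050394. Strand and exact position within the peak are not given.
flh, chr13:14830670-14831053: ctcAATACACA
flh, chr13:14831736-14832177: ttcAATACACA
flh, chr13:14836658-14837289: ttcATTCCACT
tbx16, chr8:54036509-54036931: ctgAATACACA
tbx16, chr8:54049983-54050394: gccAATACACA
vox and vent, chr13:54056171-54056958: cgcAATAAACA
vox and vent, chr13:54065528-54065931: atcAATTCACA
mxtx2, chr12:30784132-30784546: gtcAGTCCACA
wnt11, chr5:38108586-38109172: ctgAATACACA
wnt11, chr5:38112092-38112813: cgcAATAAACA
wnt8a, chr14:35621757-35622235: tccAATACACA
lft2, chr17:8154942-8155356: tccAATCCACA
lft2, chr17:8158082-8158466: cccAATAAACA
lft1, chr20:35102573-35102749: tggAATAAACA
nhsl1b, chr20:30883564-30884048: gccAATACACA
her5 and her11, chr14:31411968-31412762: gggAATACACA
dlc, chr15:19432415-19433003: accAATTCACA
vgll4l, chr8:31961701-31962158: atcAATAAACA
zic2b, chr1:28816392-28816619: catAATACACT
zic2b, chr1:28825834-28826424: acaAATACACA

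Of these 20 entries 9 ended in AATACACA and 5 in AATAAACA. AATTCACA was the ending of 2 entries, and AATACACT, AATCCACA, AGTCCACA and ATTCCACT of 1 each. Of the 20 entries, 12 lay in members that overlapped a Smad2 peak by 1 bp or more. Outside chromosomes 1 and 10 to 17, and on part of chromosome 17, however, letters were at hand only for peaks that share Smad2. A match between an entry and Smad2 is fixed there by the annotation. For 226 members letters were at hand whether or not they share Smad2, and 23 of these 226 shared Smad2. Of the 226, 62 had an entry, and 9 of these 62 shared Smad2. Among the 9 were 4 of 12 entries ending in AATAAACA and 3 of 16 ending in AATACACA. An association of entries with Smad2 was not tested.

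Dense groups were more frequent than peaks placed independently would give. For peaks at independent uniform positions, at the density of each chromosome, 12.7 groups with 38.7 members were calculated, so the list held 17.9 times as many groups and 19.9 times as many members. The excess grew with size. Pairs numbered 722 against 261 calculated, a ratio of 2.77. Groups of 3 numbered 175 against 12.1, groups of 4 numbered 34 against 0.566, and groups of 5 or more numbered 18 against 0.0279. The last were 8 groups of 5 peaks, 7 of 6 peaks and 1 each of 8, 9 and 11 peaks. The length was then cut to the 749 Mb covered by at least 1 input tag, of 1357 Mb in all. This gave 38.6 groups calculated and a ratio of 5.87. The gap stayed at 10 kb there, as if the covered bases lay in 1 stretch. Gaps in the list also span uncovered bases, so 5.87 does not describe peaks confined to covered bases. The calculation supposes that a peak is equally likely at every base, and it is a yardstick and not a test.

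**Figure D1:**
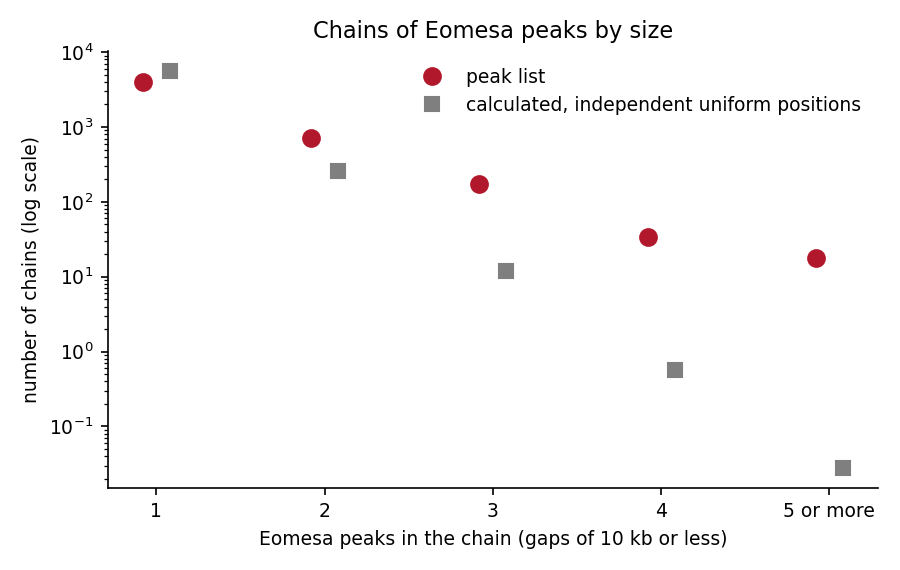
Number of chains (log scale) by the number of Eomesa peaks in them, in the peak list (circles) and as calculated for independent uniform positions (squares). Peaks standing alone were fewer than calculated, 4000 against 5655, and every larger size was more frequent, up to 18 chains of 5 or more peaks against 0.0279.

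Some neighbouring members lay very close together. The 544 gaps within groups had a median of 1674 bp (quartiles 142 and 4520 bp), but 120 of them, or 22.1%, were under 100 bp and 197, or 36.2%, under 500 bp. In 26 groups every gap was under 500 bp. When peaks under 500 bp apart were counted as 1, the number of groups fell to 98, against 9.66 calculated, which is a ratio of 10.1. The number of groups and its excess over the calculation thus both depended on whether such close peaks were counted apart.

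Some members were also copies of each other. The reads had been mapped so that a tag could be placed at up to 2 sites, and 21 of the 771 members (2.72%), against 89 of the 5444 peaks not grouped (1.63%), had the same width and the same height in all 3 tracks as another Eomesa peak on the chromosomes, with mean signals within 5%. These 21 members lay in 7 groups, and in 4 groups every member had a copy. On chromosome 25 the groups at chr25:35202846-35206660 and chr25:35230447-35234261 were the same 3 peaks, shifted by 27601 bp. On chromosome 1 the group at chr1:23242204-23247300 recurred at chr1:23324848-23329762. Taking 1 peak of each set of copies left 225 groups. Copies of unequal width were not counted.

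Groups were compact. They spanned 0.313 to 32.4 kb with a median of 6.0 kb (quartiles 2.93 and 9.99 kb). In all they spanned 1677 kb, or 0.124% of the chromosomes. Under 5 kb was the span of 96 groups, and over 10 kb that of 57. On the far edge of the rule, the triplets at chr23:9836757-9847167, chr20:23999488-24016802 and chr19:20074247-20084445 were just inside, with largest gaps of 9578, 9512 and 9484 bp. Their members reached 11, 2 and 28, then 42, 26 and 10, and then 15, 8 and 21 Eomesa tags. Just outside were triplets at chr10:42103882-42114395, chr1:14281801-14292673 and chr19:27825562-27838074, with larger gaps of 10045, 10117 and 10301 bp and heights of 43, 13 and 40, then 25, 9 and 8, and then 13, 22 and 6 tags. Heights on both sides of the limit were alike in range, and none of these 18 peaks shared Smad2.

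Grouped peaks were about as tall as the others. The median Eomesa height was 15 tags in members (quartiles 9 and 25) and 14 tags in peaks not grouped (9 and 22), and the median widths were 278 and 267 bp. The mean Eomesa signal was 27.5 times the track mean in members and 25.6 times in peaks not grouped, and Eomesa over input was 10.3 and 9.32. Mean input signal was 2.68 and 2.75 times its track mean. Groups thus held 14.1% of the Eomesa tags at peaks, close to their 12.4% of the peaks. Members of groups of 4 or more were taller, with a median of 17 tags (quartiles 11 and 29.75), against 15 (9 and 22) in groups of 3. Their mean Eomesa signal was 31.6 times the track mean, against 25.6 times in groups of 3. A group summed to between 23.0 and 1398 Eomesa tags, with a median of 220 (quartiles 123 and 426). The member with the most tags held a median of 58.2% of its group's tags. Tags were summed over the width of a peak, so narrow members add little, and no expected share was calculated.

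Eomesa signal was also higher between the members than around the groups. Outside all peaks, and with the edges of the members included, the bases between the first and the last member averaged 3.86 times the Eomesa track mean over groups, against 1.53 times in the 10 kb on each side. The medians over groups were 2.55 and 1.33, and the mean over all bases between members, which gives short groups less weight, was 2.45. Eomesa was higher between members than in the flanks in 193 of 227 groups. By the rule no listed Eomesa peak lies in the flanks, whereas bases between members adjoin a peak at both ends. The rule thus favoured a difference in Eomesa, which is given as a description only. Smad2 averaged 1.58 against 1.30 and was higher between members in 137 groups, while input averaged 1.21 against 1.19 and was higher in 104. Edges of the members enter the Smad2 values too, and their part in the Smad2 difference was not tested. Of 212 groups with bases more than 100 bp from any member, 64 (30.2%) had there an Eomesa value at or above the median height of their members, and 19 (8.96%) one at or above their tallest member. The list thus leaves out part of the Eomesa signal in the track, and whether such signal was present in both reactions cannot be told from 1 track.

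Members shared Smad2 peaks more often than other Eomesa peaks did. Overlap with a Smad2 peak, by 1 bp or more, was found for 88 of 771 members, or 11.4% (9.36 to 13.9), against 5.68% of all Eomesa peaks on the chromosomes and 265 of 5444 peaks not grouped, or 4.87% (4.33 to 5.47). The share increased with the size of the chain. It was 4.00% (3.44 to 4.65) in peaks standing alone, 7.27% (6.04 to 8.73) in pairs, 10.7% (8.31 to 13.6) in groups of 3 and 13.0% (9.37 to 17.8) in groups of 4 or more. The intervals of pairs and groups of 3 overlapped, as did those of groups of 3 and of 4 or more. Neighbouring members are not independent, which makes these intervals too narrow.

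The difference was also present among Eomesa peaks of like height. In 4 classes of equal size from low to high Eomesa height, sharing was 4.02%, 5.16%, 13.4% and 20.4% in members, against 1.99%, 2.64%, 4.69% and 10.3% in peaks not grouped. The intervals of both sets overlapped in the lower classes and were apart in the upper ones, at 9.22 to 18.99 against 3.69 to 5.94 and at 15.7 to 26.1 against 8.82 to 12.1. Over 13 other settings of gap, overlap, height and width, sharing was 1.99 to 3.69 times as frequent in members as in peaks not grouped.

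**Figure D2:**
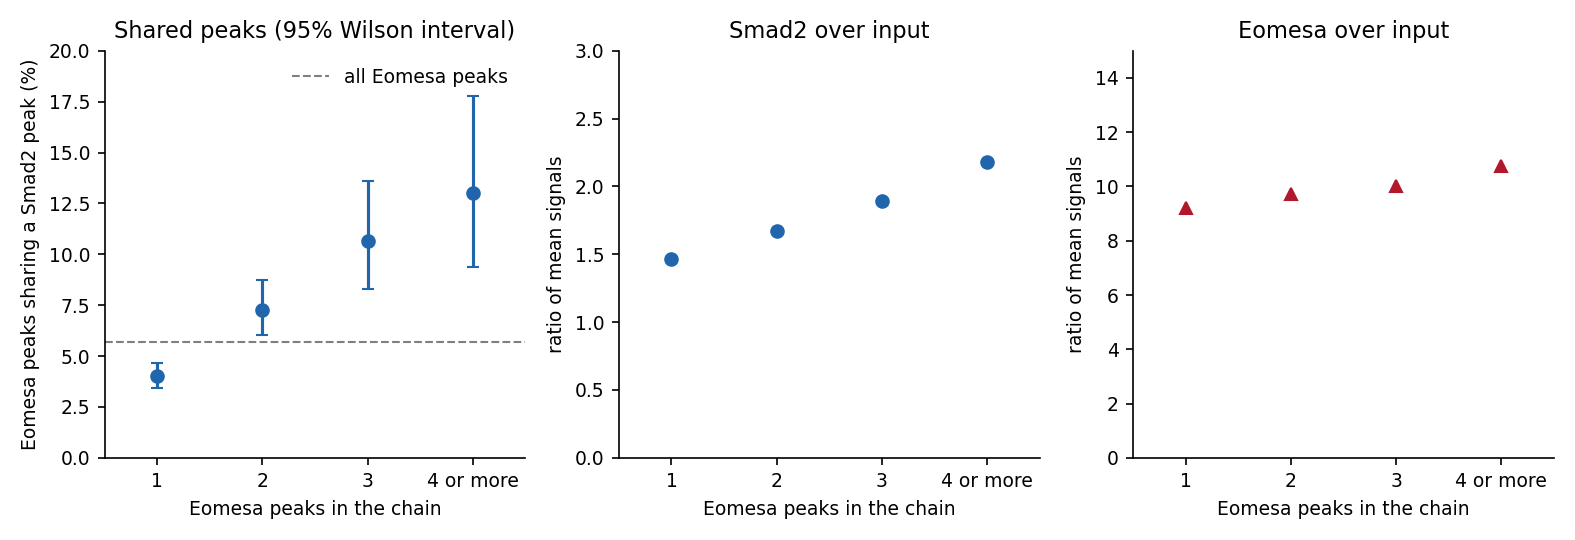
Left, share of Eomesa peaks that overlap a Smad2 peak by the number of peaks in their chain (points, with 95% Wilson intervals; dashed line, all Eomesa peaks). Middle and right, Smad2 over input and Eomesa over input as ratios of mean signals. Sharing was 4.00% for lone peaks and 13.0% in chains of 4 or more, Smad2 over input was 1.46 and 2.18, and Eomesa over input 9.19 and 10.7.

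Most groups held no Smad2 peak, and in the others usually 1 member shared Smad2 and not all of them. A Smad2 peak lay inside 66 of the 227 groups (29.1%, 23.6 to 35.3), and 47 of these had 1 sharing member, 16 had 2 and 3 had 3. All members shared Smad2 in 1 group only. The groups took up 0.124% of the chromosomes and held 92 of 880 Smad2 peaks (10.45%), of which 87 shared an Eomesa peak and 5 did not. Since the groups were built from Eomesa peaks, their share of the chromosomes is no yardstick for Smad2 peaks that overlap Eomesa. Members were 12.4% of the Eomesa peaks on the chromosomes, and 88 of the 353 Eomesa peaks that shared Smad2. The tallest member shared Smad2 in 45 of the 66 groups (68.2%). In the 47 groups with exactly 1 sharing member it did so in 29 (61.7%, 47.4 to 74.2), where choosing a member of each group with equal weights would give 30.4%.

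The Smad2 track was also higher at members outside the Smad2 list. Over all members the mean Smad2 signal was 5.34 times its track mean, against 4.16 at peaks not grouped, and Smad2 over input was 1.99 against 1.52. At the 683 members that shared no Smad2 peak it was 1.66, against 1.37 at the 5179 such peaks not grouped. Among these members the ratio was 2.06 for the 146 in groups with a sharing member and 1.55 for the 537 in groups with none. This split rests on the Smad2 list, which comes from the same signal, and some of these members lie close to a listed Smad2 peak. The part of such closeness in the difference was not tested. At peaks that did share, members and peaks not grouped were alike, with 4.23 and 4.36. Smad2 over input was above 1 in 194 of 227 groups, above 2 in 99 and above 4 in 20.

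Genes near the groups were looked up in lists of mesendoderm and Nodal genes (87 genes) and of ectoderm and neural genes (76 genes). A gene counts as near when its transcription start lies within 10 kb of a peak in the annotation of the lists. Near the groups were 14 genes of the first list, at 13 groups, and 8 of the second, at 7 groups, with irx7 in both. Of these, 11 of the 13 groups and 4 of the 7 groups had a member that shared Smad2. Since names on many chromosomes were at hand only for peaks with Smad2, these counts are no measure of preference.

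The group with the strongest Smad2 signal, 21.5 times the track mean, lay at flh, which encodes the homeobox factor that the notochord needs. Its 5 members at chr13:14826018-14843931 reached 23, 26, 29, 34 and 21 Eomesa tags in order. In Smad2 they reached 16, 110, 76, 10 and 17 tags, and in input 13, 5, 11, 7 and 12 tags. The second and the third member, whose Foxh1 entries both end in AATACACA, thus stood far above the others in Smad2, while Eomesa was spread over all 5. The fourth member also holds an entry, ending in ATTCCACT, and reached 10 Smad2 tags. Smad2 over input was 9.24 in the group. Another Smad2 peak lay between members where Eomesa reached only 3 tags. It reached 21 Smad2 and 2 input tags, with mean signals of 10.6 and 0.352 times the track means. An Eomesa signal of 37 tags about 10.1 kb from the first member was taller than any member but was not in the list.

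The T-box genes tbx16 and ntla had groups with more than 1 Smad2 peak. At tbx16, the spadetail gene of paraxial mesoderm, 8 members at chr8:54026381-54052338 reached 28, 11, 9, 30, 7, 18, 16 and 11 Eomesa tags. Their Smad2 heights were 24, 12, 2, 74, 10, 6, 42 and 5 tags and their input heights 14, 12, 3, 11, 5, 12, 15 and 5 tags. Smad2 stood out at the fourth and the seventh member, although the seventh was lower in Eomesa than the first. A Smad2 peak between members reached 28 Smad2, 13 Eomesa and 16 input tags. Its mean signals were 14.9, 11.9 and 4.35 times the track means, in that order. At ntla, the zebrafish Brachyury gene, 3 members at chr19:30638445-30643413 reached 34, 17 and 8 Eomesa tags, 59, 3 and 50 Smad2 tags and 15, 9 and 9 input tags. The lowest Eomesa peak of that group therefore had a Smad2 height close to that of the tallest.

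At vox and vent, neighbouring genes for homeobox repressors of dorsal fate, all 3 inner members shared Smad2. The 5 members at chr13:54041905-54065931 reached 16, 37, 26, 41 and 19 Eomesa tags, 9, 39, 13, 68 and 12 Smad2 tags and 5, 15, 6, 18 and 13 input tags. At irx7, an Iroquois homeobox gene of the early neural plate, the first of 3 members at chr23:37902542-37911451 stood far above the rest with 75, 11 and 11 Eomesa tags, 42, 4 and 10 Smad2 tags and 14, 3 and 4 input tags. It held 91.6% of the group's Eomesa tags. At mxtx2, a homeobox gene of the yolk syncytial layer, no member shared Smad2. Its 3 peaks at chr12:30782782-30784546, the first 2 of them 3 bp apart, reached 4, 9 and 24 Eomesa tags, 4, 7 and 12 Smad2 tags and 4, 4 and 5 input tags.

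Groups also lay at genes for secreted signals. At wnt11, a Wnt ligand of gastrulation movements, 3 members at chr5:38108586-38113949 reached 40, 56 and 9 Eomesa tags, 67, 62 and 4 Smad2 tags and 10, 24 and 4 input tags. The first and the second shared Smad2, and Smad2 over input was 5.50 in the group. At wnt8a, a Wnt ligand of the ventrolateral margin, 3 members within 1.87 kb at chr14:35620364-35622235 reached 6, 16 and 11 Eomesa tags, 13, 17 and 14 Smad2 tags and 5, 5 and 6 input tags. Smad2 was even over these 3. Only the first, a peak of 16 bp, overlapped the Smad2 peak, which starts before the group at chr14:35620204 and reached 26 Smad2 tags.

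Both Lefty genes, whose products are secreted antagonists of Nodal, had a group. At lft2 the 3 members at chr17:8152766-8158466 reached 22, 20 and 37 Eomesa tags, 13, 70 and 35 Smad2 tags and 8, 23 and 5 input tags, and the second and the third shared Smad2. At lft1 the 4 members at chr20:35099941-35103882 reached 17, 8, 12 and 7 Eomesa tags, 36, 28, 35 and 9 Smad2 tags and 18, 27, 8 and 1 input tags. Between the lft1 members Smad2 reached 50 tags, more than at any of them. Smad2 over input was 5.41 in the lft2 group and 2.97 in the lft1 group, where input was 4.31 times its mean.

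**Figure D3:**
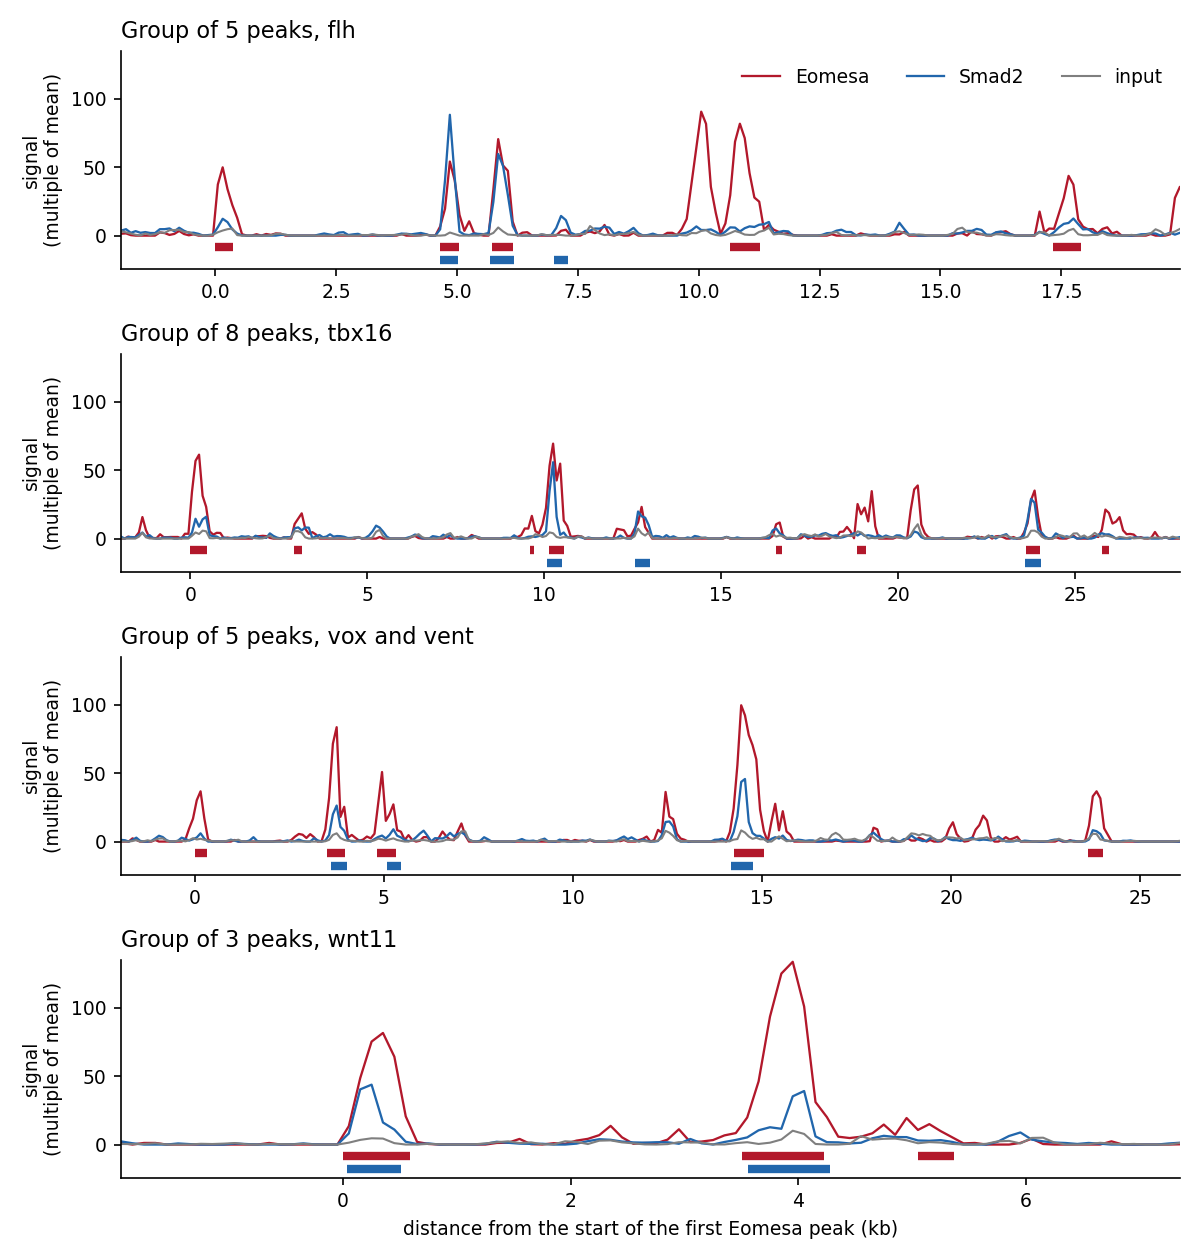
Mean signal in windows of 100 bp, as a multiple of the mean of each track, along 4 groups against the distance from the start of the first Eomesa peak; bars below 0 mark the peaks in the Eomesa (red) and Smad2 (blue) lists. Among the members, Smad2 is concentrated at 2 of them at flh, tbx16 and wnt11, and at vox and vent at the second and the fourth of 5. The highest input window is at 7.0 times its mean at flh, 10.51 at tbx16, 8.17 at vox and vent and 10.1 at wnt11, against 88.2, 55.8, 45.7 and 43.7 for Smad2. The highest windows of input and of Smad2 are not the same windows.

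Further groups on the mesendoderm list were at nhsl1b, id1 and efna1b. At nhsl1b, a relative of the Nance-Horan syndrome gene, all 3 members shared Smad2, the only group of which this was true. The peaks, at chr20:30873352-30884048, reached 23, 44 and 30 Eomesa tags, 43, 32 and 31 Smad2 tags and 24, 17 and 8 input tags. At id1, an inhibitor of basic helix-loop-helix factors, 4 members at chr11:19127834-19134899 reached 12, 44, 12 and 10 Eomesa tags, 12, 17, 13 and 9 Smad2 tags and 11, 16, 5 and 16 input tags, and the first shared Smad2. At efna1b, which encodes an ephrin ligand, 4 members at chr16:25514420-25526487 reached 27, 11, 37 and 17 Eomesa tags, 13, 13, 10 and 11 Smad2 tags and 15, 7, 13 and 11 input tags. Smad2 over input was 1.32 at id1 and 1.93 at efna1b, below the ratio of 3.10 at nhsl1b.

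Of the ectoderm and neural list, the group at her5 and her11 had the most Eomesa signal. These are neighbouring genes for Hairy-related repressors of the midbrain-hindbrain region. The 3 members at chr14:31411199-31414568 reached 33, 61 and 19 Eomesa tags, 16, 21 and 7 Smad2 tags and 5, 15 and 10 input tags. They summed to 1016 Eomesa tags, and none shared Smad2. At dlc, the Notch ligand gene deltaC, the 4 members at chr15:19428279-19433003 reached 14, 9, 9 and 52 Eomesa tags, 11, 7, 8 and 18 Smad2 tags and 10, 2, 6 and 21 input tags, and at gata2a, a zinc-finger factor of blood and non-neural ectoderm, those at chr11:3915940-3932548 reached 13, 13, 31 and 11 Eomesa tags, 7, 7, 13 and 11 Smad2 tags and 9, 3, 6 and 10 input tags. None of these shared Smad2 either, so these 3 groups held no peak of the Smad2 list.

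The other 3 groups of this list had Smad2. At zic2b, a zinc-finger gene of neural tissue, 3 members at chr1:28811190-28826424 reached 17, 6 and 33 Eomesa tags, 18, 2 and 21 Smad2 tags and 8, 6 and 11 input tags. The first shared Smad2 and the third, with a higher Smad2 value, did not. At klf2b, a Krüppel-like factor of the early epidermis, 3 members at chr19:17837851-17846193 reached 22, 18 and 8 Eomesa tags, 29, 20 and 13 Smad2 tags and 17, 8 and 8 input tags, and the second and the third shared Smad2. At vgll4l, a vestigial-like cofactor gene, 4 members at chr8:31953060-31962158 reached 38, 9, 10 and 22 Eomesa tags, 26, 4, 12 and 37 Smad2 tags and 17, 8, 3 and 9 input tags. There the fourth member was the one that shared Smad2, and the first was the tallest in Eomesa.

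A member shared Smad2 in 22 of 52 groups of 4 or more (42.3%, 29.9 to 55.8) and in 44 of 175 groups of 3 (25.1%, 19.3 to 32.1), and these intervals overlapped. A larger group has more members that can share, so these values are no measure per peak. Per member, sharing was 13.0% in groups of 4 or more and 10.7% in groups of 3. The largest group, 11 peaks at chr4:28002456-28018655, had no Smad2 peak. Its members were 67 to 173 bp wide and reached 33, 17, 45, 41, 38, 57, 38, 57, 29, 17 and 15 Eomesa tags. In Smad2 they reached 3, 12, 5, 12, 45, 40, 45, 40, 24, 12 and 10 tags, and in input 4, 7, 13, 8, 40, 26, 40, 26, 17, 7 and 10 tags. Its mean input signal, 7.49 times the track mean, was the highest of all 227 groups. It also held copies. The fifth and sixth members recurred 5892 bp further on as the seventh and eighth, and the second recurred as the tenth, each with equal heights in all 3 tracks, so 8 distinct peaks remained. Leaving the group out changed Eomesa over input at the members only to 10.4 and left Smad2 over input at 2.00.

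Next in size was a group of 9 peaks at chr8:31282099-31301359, which again shared no Smad2. The members reached 20, 17, 3, 14, 14, 9, 11, 22 and 3 Eomesa tags, 8, 13, 2, 9, 7, 7, 3, 12 and 9 Smad2 tags and 16, 4, 0, 5, 2, 5, 5, 13 and 7 input tags. Here input was low, at 1.95 times its mean, and the peaks were small. Of the 7 groups of 6 peaks, those at chr5:23832630-23854248 and chr8:9442463-9474846 had Smad2. The group on chromosome 5, near shisa2 and MTMR8, had 3 sharing members and 21, 21, 30, 18, 4 and 12 Eomesa tags, 4, 19, 42, 19, 5 and 16 Smad2 tags and 12, 9, 16, 13, 12 and 15 input tags. The other 5 groups of 6 peaks had no Smad2 peak. At chr3:61968448-61992831 Eomesa heights were 32, 32, 13, 43, 1 and 43 tags, and Smad2 over input was 1.64. At chr4:28282375-28296360 they were 16, 21, 11, 11, 11 and 67 tags, with 0.887 for Smad2 over input, the only 1 of these groups below input. At chr6:12820692-12839842 they were 27, 15, 6, 31, 19 and 34 tags, with a ratio of 2.74, the highest of the 5. The groups at chr10:34904869-34918842 and chr11:43138166-43170141 reached 6 to 29 and 11 to 28 Eomesa tags, with ratios of 1.56 and 1.42.

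Summed Eomesa signal picked out other loci. The most, 1398 tags, was in the 6 peaks at chr8:9442463-9474846. They reached 20, 43, 18, 72, 38 and 7 Eomesa tags, 7, 29, 8, 29, 14 and 2 Smad2 tags and 5, 12, 7, 20, 25 and 5 input tags, and the second, not the tallest, shared Smad2. Next came 4 peaks at chr9:47613662-47640696 with 1231 tags, with heights of 56, 24, 15 and 59 Eomesa tags, and the third and the fourth shared Smad2. On chromosome 23, 3 peaks at chr23:41448237-41450565 summed to 1187 tags and none shared Smad2. Their heights were 71, 35 and 41 Eomesa tags, 15, 9 and 8 Smad2 tags and 13, 5 and 6 input tags. At chr16:39464410-39491599 5 peaks summed to 1148 tags, and the first and the fifth, with 33 and 65 Eomesa tags, shared Smad2. At chr19:36539896-36549843 5 peaks of 38, 32, 24, 48 and 39 Eomesa tags summed to 1110, the second shared Smad2, and Eomesa over input was 36.5. The group at chr9:10915821-10924475, with 1109 tags, lies near cxcr4b, a chemokine receptor gene, and had 4 members of 44, 17, 57 and 30 Eomesa tags, 17, 11, 16 and 14 Smad2 tags and 10, 6, 6 and 12 input tags, the third of which shared Smad2. Among the groups with the most sharing members, 4 peaks at chr15:308937-316170 reached 46, 27, 4 and 38 Eomesa tags, 54, 50, 13 and 8 Smad2 tags and 22, 24, 5 and 8 input tags. There the second and the third overlapped 1 and the same Smad2 peak, and the first, the tallest in both factors, was not in the Smad2 list.

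**Figure D4:**
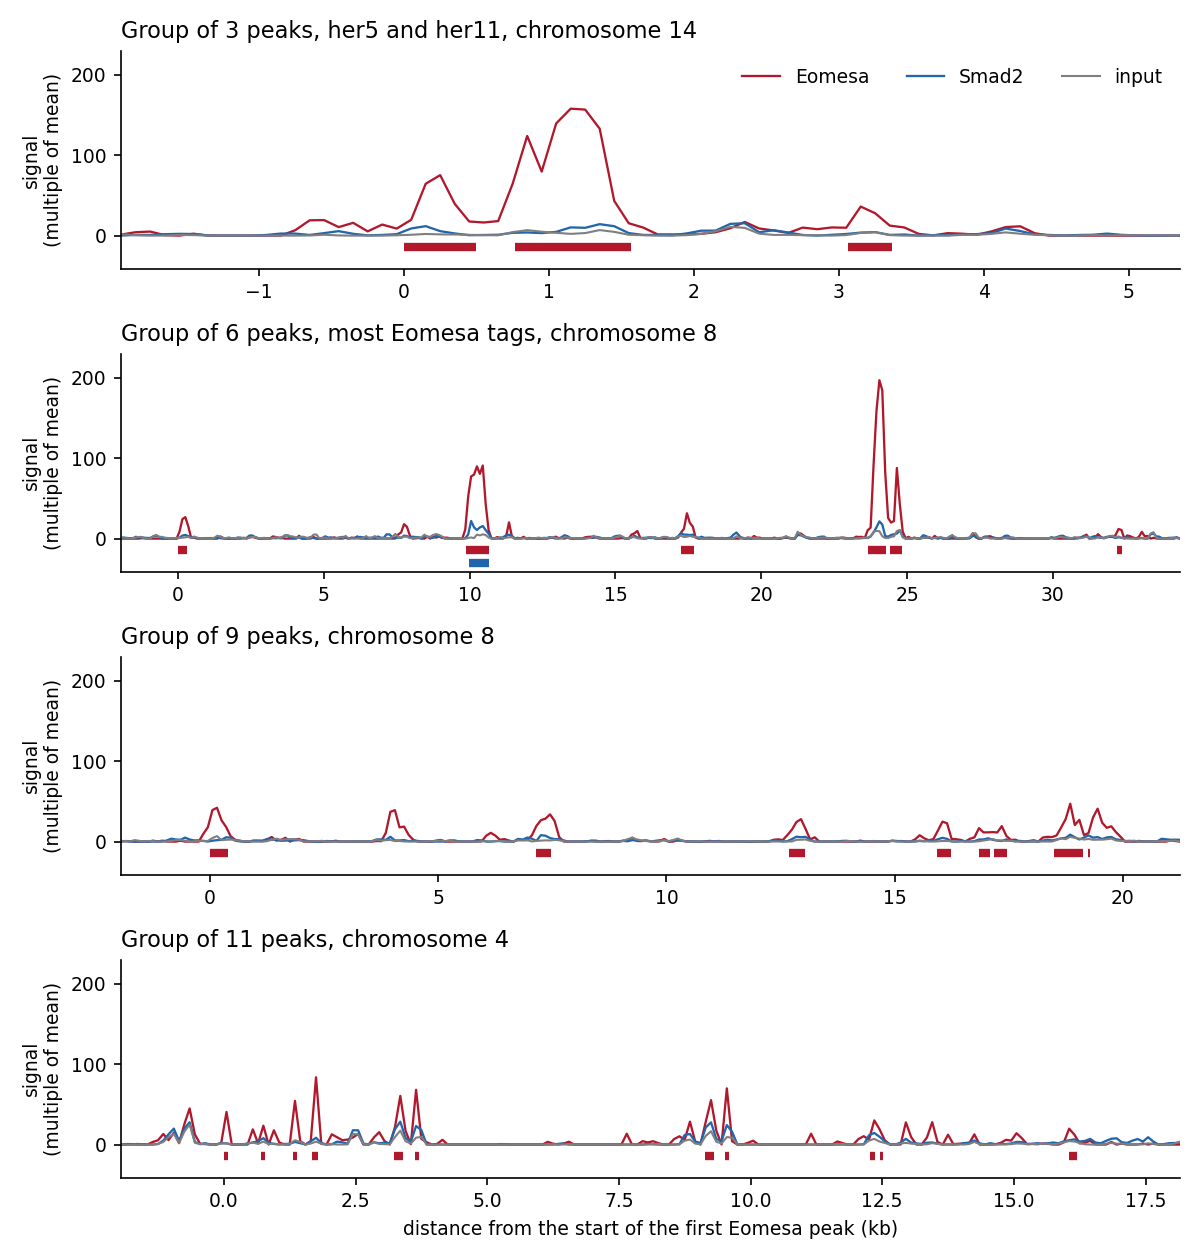
Mean signal in windows of 100 bp as a multiple of each track's mean along 4 further groups, drawn as for the developmental genes above. No Smad2 peak is listed in the groups at her5 and her11, of 9 peaks and of 11 peaks. Their highest Smad2 windows are at 15.4, 8.66 and 28.5 times the mean, where input in the same windows is at 9.63, 6.02 and 17.3. The group with the most tags (1398) has a listed Smad2 peak at its second member.

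Input was high in a few groups. After the group of 11 peaks, the highest mean input was 6.92 times the track mean, in 3 peaks at chr1:40466551-40481747. These reached 35, 15 and 47 Eomesa tags, 20, 8 and 24 Smad2 tags and 29, 10 and 39 input tags. The group at chr4:13034909-13044458, near the planar cell polarity gene prickle1b, had 6.55 and 1 sharing member, and that at chr25:960893-964807 had 6.46. In these 3 groups Smad2 over input was 1.07, 1.18 and 0.423, so Smad2 was near input or below it, while Eomesa over input was 5.94, 4.07 and 4.83. The part of high input in these Eomesa peaks was not tested. Without the 289 Eomesa peaks of input height above 19 tags, the 95th percentile, 200 groups were left.

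Over the 227 groups Eomesa over input had a median of 10.3 (quartiles 7.41 and 14.03) and Smad2 over input one of 1.93 (1.22 and 2.71). Groups with more Eomesa had more Smad2, with a Spearman correlation of 0.47 between mean signals over 227 groups, but both also went with input, at 0.38 for Eomesa and 0.40 for Smad2. The tracks share the mappable sequence of each locus, and the correlations are a description. Both ratios were extreme in a group of 3 peaks under 10 Eomesa tags at chr21:23750658-23751100, where input reached at most 1 tag. A group of 4 peaks at chr2:54441964-54444464, singled out after its values were seen, had heights of 70, 72, 65 and 62 Eomesa tags, close to the highest value of the track at 78, with 5, 2, 0 and 2 Smad2 tags and 6, 3, 1 and 4 input tags.

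**Figure D5:**
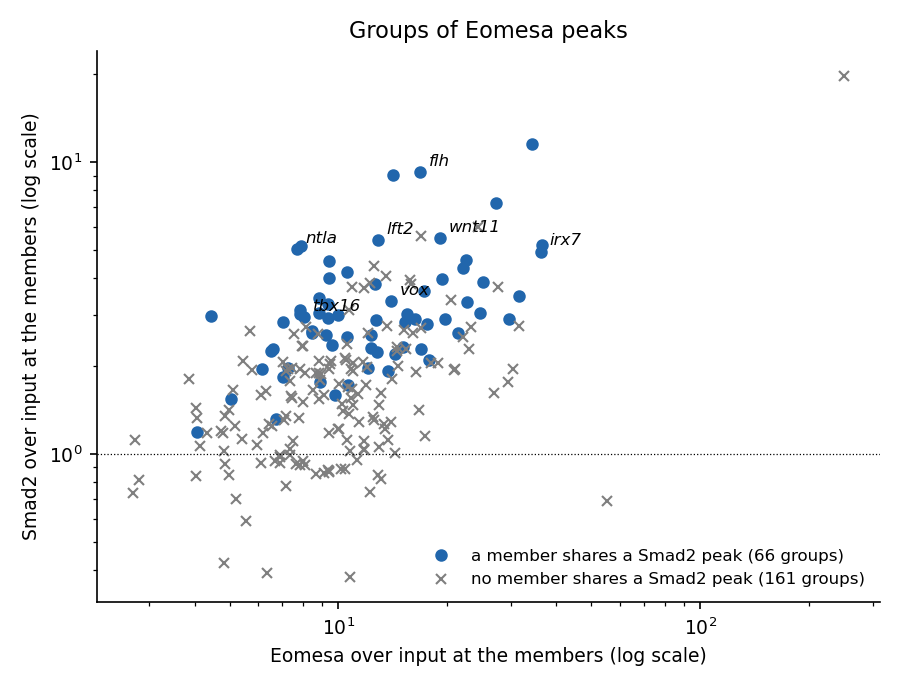
Smad2 over input against Eomesa over input at the members of each group (log scales), for 66 groups with a member that shares Smad2 (circles) and 161 with none (crosses); the dotted line marks a Smad2 over input of 1. Groups at flh (9.24), wnt11 (5.50) and lft2 (5.41) lie above the median of 1.93. Groups with no sharing member lie between 0.38 and 19.8, the highest being the group almost without input.

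Groups lay on all 25 chromosomes. The share of a chromosome's Eomesa peaks that were members was between 4.81% on chromosome 12, with 3 groups, and 22.8% on chromosome 25, with 13 groups. Chromosomes 8, 15, 4 and 19 followed with 19.9%, 19.03%, 17.3% and 17.2%. On chromosome 25 a pair of the 13 groups were the copies described above.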

How the data were processed

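ChIP-seq reads were mapped by the authors to Zv9 with Bowtie in Galaxy, with up to 2 placements per read, and peaks were called with MACS against paired input. The deposited lists hold regions found in both reactions, with their width and no score. The deposited tracks hold signal, the coverage by extended tags every 5 bp, not scaled to depth, 1 for each of Eomesa, Smad2 and input. Whether a track pools both reactions is not given in the sources used here. The members and gene lists were chosen with earlier results of these data known.

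Positions are printed as deposited. Listed peaks of width 0, 2 of them members, were read as 1 base. Chaining, overlaps, Wilson intervals and a closed formula for independent uniform positions, used in place of shuffled peaks, were computed in Python 3.11.15 with numpy 2.4.6 and pandas 2.3.3, and tested on simulated data. Genes and Foxh1 letters come from the annotation of the lists, complete for 226 members and otherwise limited to peaks with Smad2. Described singly were the 10 groups with most peaks, the 6 with most Eomesa tags, the 8 with most sharing members, the 4 of highest input, the 3 triplets on each side of the gap limit and groups with a listed gene. Alternatives covered gap, size, height, width, overlap, input and copies. No genome of this build was used, so motifs were not searched.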

Additional observations from a re-analysis of the deposited data

Results flagged for a closer look

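Dense groups were also found on sequences not placed on a chromosome, which the comparisons above leave out. Of 163 Eomesa peaks there, 12 formed 4 groups under the same rule. Their mean signal was 31.7 times the track mean in Eomesa and 3.40 times in Smad2, against 2.30 times in input. Eomesa over input was thus 13.8, above the input level and above the 10.3 at members on the chromosomes. Mean Smad2 signal was below the 5.34 times at members on the chromosomes, where input was at 2.68 times. These values rest on 12 peaks.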

How the results depend on the processing

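Of 55 alternative values for 8 results, 36 were classed as near the value given, 19 as moved and 0 as reversed. By themselves, the number of groups, the percent of peaks in groups and the percent of groups with Smad2 have no direction that could reverse. For the number of groups, near meant within a factor of 1.5 of 227. That took in 155 and 333 groups with gaps of 5 and 20 kb, and 153 with peaks of at least 100 bp. Alternatives chosen after seeing the data numbered 11. The number of groups was 52 with at least 4 peaks, 98 with peaks under 500 bp apart counted as 1 and 59 with Eomesa peaks of at least 14 tags, called taller peaks here. The percent of peaks in groups was 8.14 and 18.8 with gaps of 5 and 20 kb, 3.96 with at least 4 peaks, 9.49 with peaks of at least 100 bp, 6.06 with near peaks counted as 1, 6.27 with taller peaks and 11.3 with the highest input left out. The ratio of observed to calculated groups was 5.87 on input-covered length, with the gap kept at 10 kb, and 10.1 with near peaks counted as 1. Sharing of Smad2 by members was 13.9% with edges within 500 bp, 14.6% with peaks of at least 100 bp, 16.4% with taller peaks and 19.3% with near peaks counted as 1, and in each of these members shared more often than other peaks. Groups with a Smad2 peak inside were 42.3% with at least 4 peaks and 49.0% with near peaks counted as 1. The median Eomesa height of 15 tags was 7.35 tags as a mean over the peak. Fewer peaks or another measure entered by construction, and the cause was not tested further. No paired analysis was possible because no value belongs to a single reaction, so there are no replicate numbers to block on, and no replicate could be left out. Some members reach 3 tags or fewer, and 108 of the 771 members are under 100 bp wide. The part of depth and of peak width in such low heights was not tested.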
